A study of Mus musculus with 74 samples.

Results

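The genes of the secreted FGF, WNT, BMP/GDF and inhibin/activin families were followed across mouse lines carrying mutations of Aire. All symbols made of Fgf, Wnt, Bmp or Gdf and a number, or of Inha or Inhb, were taken from the deposited count tables, which gave 61 genes of the 17853 listed in any table. They comprised 19 Fgf, 18 Wnt, 10 Bmp, 9 Gdf and 5 inhibin or activin subunit genes, and 40 of the 61 were listed in all 6 tables. The 2 Bmp symbols Bmp1, a procollagen C-proteinase, and Bmp2k, a kinase, matched the spelling but encode no ligand. The libraries were bulk MARS-seq libraries, which count tags from the 3' end of transcripts, made from sorted mTEChi, the mature epithelial cells of the thymic medulla that carry much MHC class II. All mice were 4 to 7 weeks old. In C57BL/6 (B6) mice there were 4 lines, each with its own Aire+/+ (wild-type) libraries. These were the null line (3 wild-type, 5 Aire+/- and 4 Aire-/-), Y86C (3 wild-type, 3 +/Y86C and 3 Y86C/Y86C), C313X (3 wild-type, 2 +/C313X and 3 C313X/C313X) and C442G (3 wild-type, 5 +/C442G and 6 C442G/C442G). NOD mice are an inbred strain prone to autoimmune diabetes. In them there were V303M (3 wild-type, 3 +/V303M and 3 V303M/V303M) and the null allele (3 Aire+/- and 3 Aire-/-, with no wild-type library of their own). There were also +/C313Y (4, against 5 wild-type libraries) and -/C313Y (3, against 3 wild-type libraries), the last carrying 1 null and 1 C313Y allele. Of the 74 libraries 1 was titled wild type with an Aire-/- genotype and entered no comparison, and 2 of the 5 wild-type libraries set against +/C313Y were titled C313T. The labels did not say whether libraries of a group came from separate animals, so p-values measure only the spread between these libraries, which may be technical.

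As background, AIRE is the transcriptional regulator through which medullary thymic epithelial cells switch on genes otherwise restricted to other organs, so that developing T cells meet those products in the thymus. Paracrine FGFs act on FGF receptors of neighbouring cells with heparan sulfate, hormone-like FGFs (Fgf15, Fgf21 and Fgf23) circulate and need Klotho proteins, and intracellular FGFs (Fgf11 to Fgf14) are not secreted and bind voltage-gated sodium channels. WNTs are lipid-modified by Porcn, carried by Wls and bind Frizzled receptors, while BMPs, GDFs and activins are cleaved by proteases such as Furin and signal through SMAD proteins. In the thymus these families are best known as signals of the surrounding stroma or of the epithelium itself. FGF7 and FGF10 drive growth of the epithelium, WNT4 and BMP4 have been tied to Foxn1, the master regulator of thymic epithelium, and activin A to epithelial maturation.

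The 74 libraries held between 1016619 and 7225403 counts. Aire transcripts were counted in every group. A 3' tag lying outside the mutated stretch does not check the mutation, so these levels do not test the labels. In the B6 null line Aire stood at 2130 ± 79.4 CPM (its counts over the library total, scaled to a common total; mean ± SD, n = 3) in wild-type, 2430 ± 465 (n = 5) in Aire+/- and 3160 ± 364 (n = 4) in Aire-/- libraries. It stood at 3550 ± 191 in Y86C/Y86C (n = 3), 4290 ± 225 in C313X/C313X (n = 3) and 3970 ± 276 in C442G/C442G libraries (n = 6). The wild-type means of their own tables were 1690 ± 72.4, 2300 ± 555 and 2160 ± 112 (n = 3 each). Of 14 markers of the sorted cell, none was at 0 in any group. By Y-linked transcripts against Xist, the C313X line set 3 of 3 male wild-type libraries against 0 of 3 male homozygous ones, so sex and genotype cannot be told apart there. In NOD mice 2 libraries had both signals, with 111 Xist and 130 Y-linked counts in wild-type replicate 52 of the +/C313Y comparison and 283 and 132 in Aire+/- replicate 392. Without the former 16 members were called in +/C313Y libraries (17 with it), and without the latter 6 in NOD Aire-/- libraries (7 with it). In bulk libraries fewer cells expressing a gene and less RNA per cell cannot be told apart.

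Of the 61 genes, 42 had enough counts to be tested in at least 1 of 13 comparisons and 36 were called in at least 1. A call is an adjusted p under 0.05 in edgeR's quasi-likelihood test, with Benjamini-Hochberg adjustment over all genes of a table. Of the 36, 26 were called lower only, 10 higher only, and 0 in both directions. How many of all genes were called in at least 1 comparison, or in both directions, was not counted. As up to 49.6% of all genes were called in a single comparison, these counts do not set the members apart. In Aire-/- against wild-type B6 libraries, 13 of 29 tested members were lower and 8 higher, where 36.6% of all 12700 tested genes were called (18.9% lower, 17.7% higher). In Y86C/Y86C libraries 15 of 33 were lower and 8 higher, where 49.6% of all tested genes were called (27.9% lower, 21.7% higher). In C313X/C313X libraries 11 of 36 were lower and 2 higher against 23.1% of all genes (15.2% lower, 7.85% higher), and in C442G/C442G libraries 15 of 34 were lower and 7 higher against 42.6% (23.1% lower, 19.5% higher). Of the 13 members called in C313X/C313X libraries, 9 lost the call with a term for sex (Bmp7, Bmp8a, Fgf13, Fgf14, Fgf17, Gdf3, Wnt5a, Wnt6 and Wnt7b). In this line that term rested on 1 male and 1 female +/C313X library. Calls lost or kept under it therefore do not tell sex from genotype. In NOD mice, 7 of 38 were lower and 0 higher in Aire-/- against Aire+/- libraries, where 13.3% of all genes were called (9.11% lower, 4.21% higher). For +/C313Y the counts were 15 lower and 2 higher of 38 against 17.4% (11.0% lower, 6.36% higher), and for -/C313Y 13 lower and 3 higher of 38 against 22.7% (12.9% lower, 9.83% higher). Among heterozygotes, +/C442G had 10 lower and 7 higher of 34 against 26.5% (13.4% lower, 13.1% higher), and +/Y86C had 0 lower and 2 higher of 33 against 3.37% (1.04% lower, 2.32% higher). The members' median log2 fold change was -0.58 in Aire-/-, -0.43 in Y86C/Y86C, -0.67 in C313X/C313X and -0.35 in C442G/C442G libraries, beside -0.01, -0.03, -0.03 and 0 over all genes tested. A gene that passed the filter on low counts only through the group in which it was high had to differ, so these counts and medians describe the tested members and not the family.

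**Figure D1:**
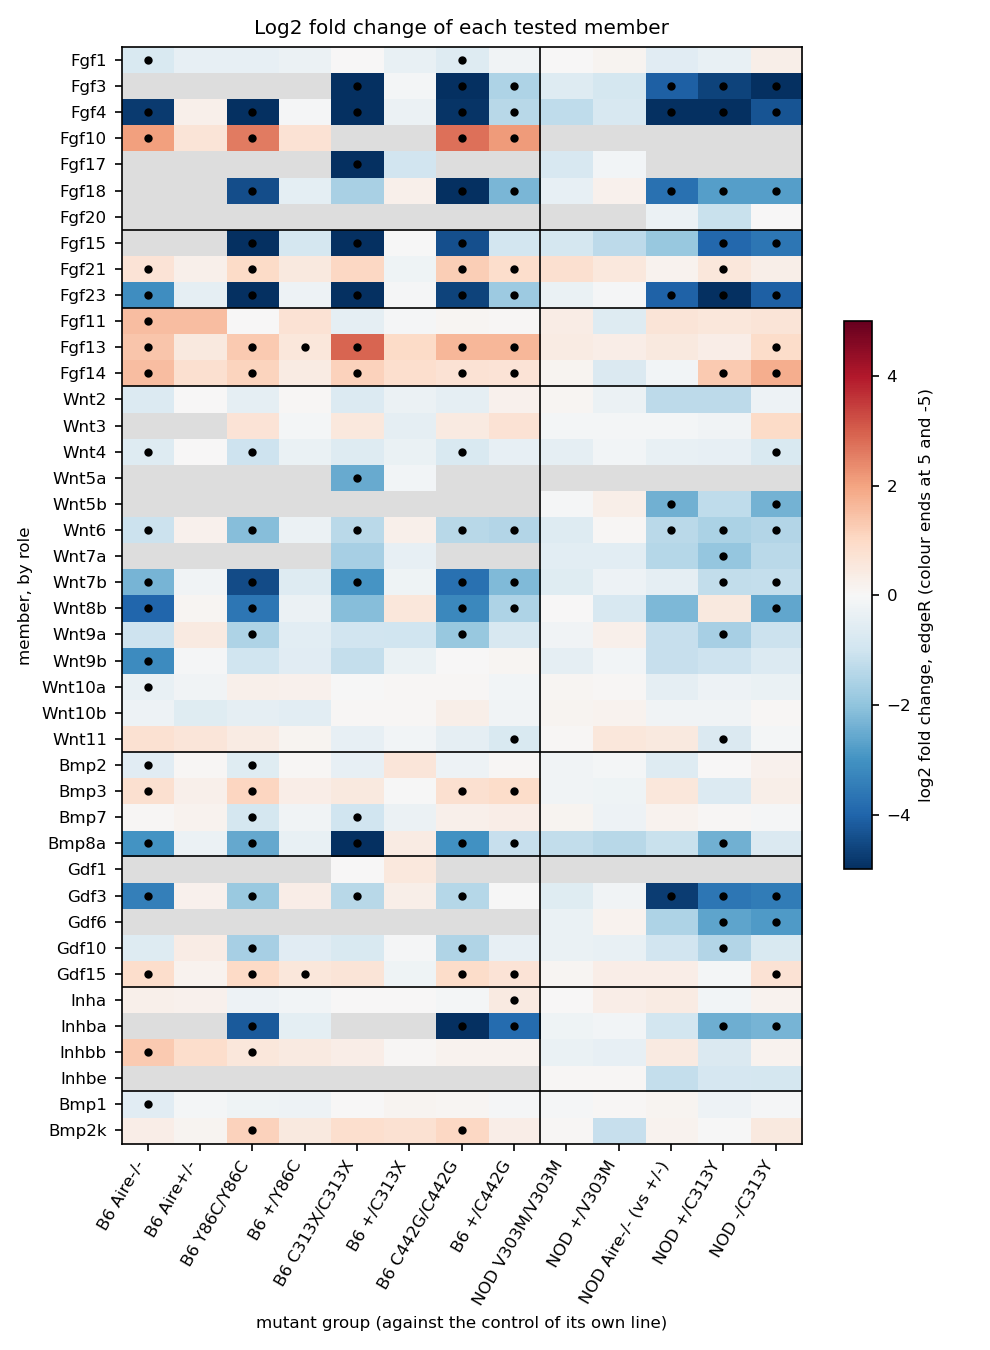
Log2 fold change (mutant over its control; colour, ends at -5 and 5) of the 42 members tested at least once, in rows, across the 13 comparisons, in columns; a dot marks an adjusted p under 0.05 and grey a member not tested. Fgf23, Fgf4 and Wnt6 carry dots for lower values in 8 comparisons each, Fgf13 and Fgf14 dots for higher values in 7 each, and the V303M columns have 0 dots.

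The remaining 19 genes were never tested. They were Bmp4, Bmp5, Bmp6, Bmp8b, Fgf5, Fgf6, Fgf7, Fgf8, Fgf9, Fgf12, Gdf2, Gdf5, Gdf9, Gdf11, Inhbc, Wnt1, Wnt2b, Wnt3a and Wnt8a, among them the thymic stromal signals Fgf7 and Bmp4. Fgf20, Gdf1, Inhbe, Wnt2, Wnt3 and Wnt10b were tested and called in no comparison.

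Fgf23, Fgf4 and Wnt6 were each called lower in the same 8 comparisons, so the stretches around their transcription starts are shown (RefSeq, GRCm38.p6, 250 bases before to 50 after the start, 5' to 3' on the gene's strand). The motifs were searched on both strands: TATAAA, the core of a TATA box, present in 13.6% of 32851 mouse promoters of this length; CCAAT, in 37.4%; and GGGCGG, the GC box, in 35.7%. Capitals mark matches, and a match on the opposite strand reads ATTGG for CCAAT and CCGCCC for GGGCGG. The Fgf23 window at chr6:127072652-127072951 (plus strand) held none of them and 6 CG pairs, more than 43.6% of promoters.
Fgf23: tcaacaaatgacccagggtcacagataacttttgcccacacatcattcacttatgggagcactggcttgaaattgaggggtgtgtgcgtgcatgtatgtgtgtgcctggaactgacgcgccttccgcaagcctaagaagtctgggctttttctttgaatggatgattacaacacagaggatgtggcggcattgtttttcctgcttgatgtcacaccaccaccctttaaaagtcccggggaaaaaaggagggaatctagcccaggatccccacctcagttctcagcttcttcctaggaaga
The Fgf4 window at chr7:144861136-144861435 (plus strand) lies around the RefSeq start at 144861386, which is inside the longer Fgf4 span that GENCODE gives. It held 28 CG pairs, more than 85.8% of promoters, with a CCAAT match on the opposite strand 106 bases before the start and GGGCGG on its own strand 214 and 188 bases before it.
Fgf4: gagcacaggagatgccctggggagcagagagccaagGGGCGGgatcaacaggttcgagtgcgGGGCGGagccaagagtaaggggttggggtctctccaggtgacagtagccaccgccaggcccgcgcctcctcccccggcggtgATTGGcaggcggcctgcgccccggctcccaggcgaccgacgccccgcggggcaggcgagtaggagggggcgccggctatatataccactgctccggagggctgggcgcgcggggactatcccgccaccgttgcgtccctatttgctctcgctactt
The Wnt6 window at chr1:74771642-74771941 (plus strand) held 31 CG pairs, more than 89.4% of promoters, and 6 GGGCGG matches, 5 of them on the opposite strand.
Wnt6: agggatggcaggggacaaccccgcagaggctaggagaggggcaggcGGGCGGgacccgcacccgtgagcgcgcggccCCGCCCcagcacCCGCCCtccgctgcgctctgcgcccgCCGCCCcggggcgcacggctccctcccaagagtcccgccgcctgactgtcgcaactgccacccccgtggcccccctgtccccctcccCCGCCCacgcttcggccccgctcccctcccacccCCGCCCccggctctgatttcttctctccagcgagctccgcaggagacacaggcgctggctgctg
The 3 windows thus differed in CG content and no motif was found in all 3.

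The hormone-like FGFs moved in opposite directions: Fgf23 was called lower in 8 of 13 comparisons, Fgf15 lower in 5 of the 11 that tested it, and Fgf21 higher in 5 of 13. Fgf23, the bone-derived hormone that makes the kidney excrete phosphate (chr6:127072902-127081408), was at 12.4, 10.6 and 6.18 CPM in wild-type libraries of the B6 null line and at 0.376, 0.802, 1.03 and 1.66 CPM in Aire-/- libraries. All 4 Aire-/- libraries lay below all 3 wild-type ones, a log2 fold change of -3.11 (SE 0.46, edgeR adjusted p = 3.53e-06). In the Y86C line Fgf23 was at 14.6, 15 and 14.4 CPM in wild-type and at 0, 0.294 and 0.499 CPM in Y86C/Y86C libraries, a ratio of 66.1 (95% counting interval 17.9 to 553, edgeR adjusted p = 1.61e-09). In C313X libraries it was at 7.36, 12.5 and 6.09 CPM against 0.27, 0 and 0.316 CPM, a ratio of 45.8 (12.2 to 386, edgeR adjusted p = 0.000322). The groups did not overlap in either line. In NOD mice the 5 wild-type libraries set against +/C313Y had 30.5, 38, 28.7, 24.3 and 24 CPM, and the 4 +/C313Y libraries 0.715, 0.76, 0 and 0.401 CPM. A single C313Y allele beside a wild-type one thus went with a log2 fold change of -5.7 (SE 0.42, edgeR adjusted p = 1.68e-10), every +/C313Y library being below every wild-type one. It fell by 4.04 (SE 0.46, edgeR adjusted p = 6.34e-07) between NOD Aire+/- (22.6, 17.8 and 21.9 CPM) and Aire-/- (2.17, 0 and 1.3 CPM) libraries, moving to -5.09 or -3.33 when Aire-/- replicate 404 or 405 was left out. It fell by 4.08 (SE 0.46, edgeR adjusted p = 1.81e-07) between wild-type (17.5, 15.3 and 13 CPM) and -/C313Y (0.28, 0.548 and 1.69 CPM) libraries, with -4.95 without -/C313Y replicate 3. Intervals on ratios of counts cover counting error only.

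Fgf15, the ileal hormone that restrains bile acid synthesis in the liver, was at 9.61, 11.3 and 10.8 CPM in Y86C wild-type and at 0, 0.294 and 0 CPM in Y86C/Y86C libraries. The ratio was 94.9 (95% counting interval 16.6 to 3800, edgeR adjusted p = 3.71e-09). In the C313X line it was at 7.36, 8 and 6.43 CPM in wild-type libraries and at 0 in all 3 homozygous ones, at least 24.2-fold lower (edgeR adjusted p = 0.000463). The groups were apart in both lines. In C442G/C442G libraries the lowest, median and highest values were 0, 0.136 and 1.18 CPM against 4.57, 7.93 and 11.4 CPM in wild-type ones. The log2 fold change was -4.38 (SE 0.56, edgeR adjusted p = 1e-07) and became -5.44 without C442G/C442G replicate 90. In NOD mice it was lower in +/C313Y (ratio 18.4, 6.05 to 91.5, edgeR adjusted p = 0.000163) and in -/C313Y libraries (ratio 15.7, 3.94 to 136, edgeR adjusted p = 0.00361). Between NOD Aire+/- and Aire-/- libraries it was tested and not called (-1.89, SE 0.73, edgeR adjusted p = 0.0915). In the B6 null table Fgf15 did not pass the filter, with 5.83, 8.28 and 3.61 CPM in wild-type and 0.751, 0.401, 0 and 0 CPM in Aire-/- libraries, a ratio of 20.7 (6.57 to 105) with no test. Its 3' end lies within reach of the annotated gene Gm39119, so its tags are uncertain.

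Fgf21, the fasting hormone of liver, stood far higher in counts than either: 413, 396 and 507 CPM in wild-type and 725, 571, 683 and 633 CPM in Aire-/- B6 libraries, all 4 above all 3. The log2 fold change was 0.68 (SE 0.11, edgeR adjusted p = 1.96e-05), and it was 1.23 (SE 0.16, edgeR adjusted p = 2.9e-07) in C442G/C442G and 0.95 (SE 0.18, edgeR adjusted p = 0.00198) in Y86C/Y86C libraries. In NOD +/C313Y libraries it was at 2900, 2050, 2010 and 2130 CPM against 1770, 1610, 2020, 1570 and 1210 CPM in wild-type ones. It rose by 0.58 (SE 0.14, edgeR adjusted p = 0.00294), with 1 wild-type library inside the range of the mutants.

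Among paracrine FGFs, Fgf4, Fgf3 and Fgf18 were at or near 0 in most homozygous libraries. Fgf10 was higher in Aire-/- B6, Y86C/Y86C, C442G/C442G and +/C442G libraries. It was not called in Aire+/- B6 and +/Y86C libraries and was not tested in the C313X line. Fgf4, which sustains the early embryo and the limb bud, was at 9.61, 8.51 and 8.07 CPM in Y86C wild-type libraries and at 0 in all 3 Y86C/Y86C ones, at least 26.3-fold lower (edgeR adjusted p = 3.9e-08). In the C313X line it was at 4.6, 14.5 and 6.77 CPM in wild-type and at 0 in all 3 homozygous libraries, at least 28.7-fold lower (edgeR adjusted p = 0.000723). In the null line 1 of 4 Aire-/- libraries had counts (0.751 CPM) against 6.2, 11.8 and 3.61 CPM in wild-type ones, a ratio of 37 (95% counting interval 9.65 to 315, edgeR adjusted p = 6.45e-06). No mutant library reached the lowest wild-type one in these lines. In NOD mice Fgf4 was at 0 in all 3 Aire-/- libraries against 5.88, 4.92 and 2.98 CPM in Aire+/- ones (at least 9.75-fold lower, edgeR adjusted p = 0.00334). It was at 0 in all 4 +/C313Y libraries against 7.86, 4.86, 3.02, 1.29 and 0.616 CPM in wild-type ones (at least 12.2-fold lower, edgeR adjusted p = 0.000624). The -/C313Y call (ratio 30.2, 4.96 to 1240, edgeR adjusted p = 0.00637) was lost without wild-type replicate 3.

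Fgf3, a signal of inner ear and tooth development, lies beside Fgf4 on chromosome 7, and Fgf15 follows: Fgf3 at chr7:144838083-144844436, Fgf4 at chr7:144847367-144865243 and Fgf15 at chr7:144896531-144900953, all on the plus strand in GENCODE, with gaps of 2.9 and 31.3 kb. From the RefSeq start of Fgf4 the distance to Fgf3 would be longer. Fgf3 was at 7.36, 4.45 and 4.4 CPM in C313X wild-type and at 0 in all 3 C313X/C313X libraries (at least 18-fold lower, edgeR adjusted p = 0.00239). It was at 5.71, 4.65 and 12.5 CPM in C442G wild-type and at 0 in all 6 C442G/C442G libraries (at least 51.9-fold lower, edgeR adjusted p = 1.29e-08), so that none of these 9 homozygous libraries held a Fgf3 count. In NOD mice it was lower in Aire-/- (ratio 24.2, 95% counting interval 4.08 to 982, edgeR adjusted p = 0.00726, a call lost without Aire-/- replicate 405). It was also lower in +/C313Y (ratio 32.8, 8.79 to 275, edgeR adjusted p = 4.29e-05) and in -/C313Y libraries, all 3 of them at 0 (at least 21.5-fold lower, edgeR adjusted p = 3.06e-05). In the null table it was not tested, with 3.65, 9.46 and 3.61 CPM in wild-type and 0.376, 0.401, 0 and 0 CPM in Aire-/- libraries, a ratio of 27.8 (7.1 to 239).
Of the genes on either side of the trio, Ccnd1 (chr7:144929931-144939925), encoding cyclin D1, had a log2 fold change of -0.78 in Aire-/- (edgeR adjusted p = 4.69e-07). It had -0.58 in Y86C/Y86C (edgeR adjusted p = 9.31e-05) and -0.45 in C442G/C442G libraries (edgeR adjusted p = 0.0162). Ano1 (chr7:144588549-144751974), a chloride channel gene, had -0.59 in Y86C/Y86C libraries (edgeR adjusted p = 0.0333), and -0.49 in Aire-/- and -0.54 in C442G/C442G libraries did not pass (edgeR adjusted p = 0.193 and 0.167). In C313X/C313X, NOD Aire-/-, +/C313Y and -/C313Y libraries neither gene was called. Ccnd1 had -0.61, 0.05, -0.29 and -0.36 there (edgeR adjusted p from 0.0828 to 0.899).

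Fgf18, which acts on cartilage and bone, was at 6.41, 5.27 and 8.97 CPM in Y86C wild-type and at 0, 0.588 and 0 CPM in Y86C/Y86C libraries. The ratio was 30.6 (95% counting interval 8.06 to 260, edgeR adjusted p = 2.9e-06). In C442G/C442G libraries it was at 0 in 5 of 6 and at 0.267 CPM in replicate 84, against 4, 7.65 and 4.55 CPM in wild-type ones (ratio 122, 20.8 to 4950, edgeR adjusted p = 1.72e-08). It was also called lower in +/C313Y (-2.74, SE 0.65, edgeR adjusted p = 0.00297; -3.54 without +/C313Y replicate 53), -/C313Y (-2.77, SE 0.77, edgeR adjusted p = 0.00889) and NOD Aire-/- libraries. The last call was lost without Aire+/- replicate 402 or Aire-/- replicate 404. Fgf17, a signal of the embryonic hindbrain border, was called only in C313X/C313X libraries, at 0 in all 3 against 3.68, 4.45 and 3.05 CPM (at least 12.4-fold lower, edgeR adjusted p = 0.00274, lost with a sex term). Fgf1, an FGF without a signal peptide, was lower in Aire-/- (-0.78, SE 0.26, edgeR adjusted p = 0.0166) and C442G/C442G libraries (-0.66, SE 0.21, edgeR adjusted p = 0.0127). Each call was lost when 1 wild-type library was left out (Aire_wt_434 and replicate 89), and its 3' end overlaps Arhgap26. Fgf10, which drives budding of lung and limb, ran the other way. It was at 3.28, 1.77 and 2.58 CPM in wild-type and 14.7, 9.22, 10.3 and 8.01 CPM in Aire-/- B6 libraries. The groups did not overlap (2.07, SE 0.45, edgeR adjusted p = 0.000469). It was higher by 2.59 in Y86C/Y86C (SE 0.36, edgeR adjusted p = 4.93e-07) and by 2.77 in C442G/C442G libraries (SE 0.42, edgeR adjusted p = 1.6e-06), the latter moving to 2.06 or 3.84 without wild-type replicate 88 or 86.

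**Figure D2:**
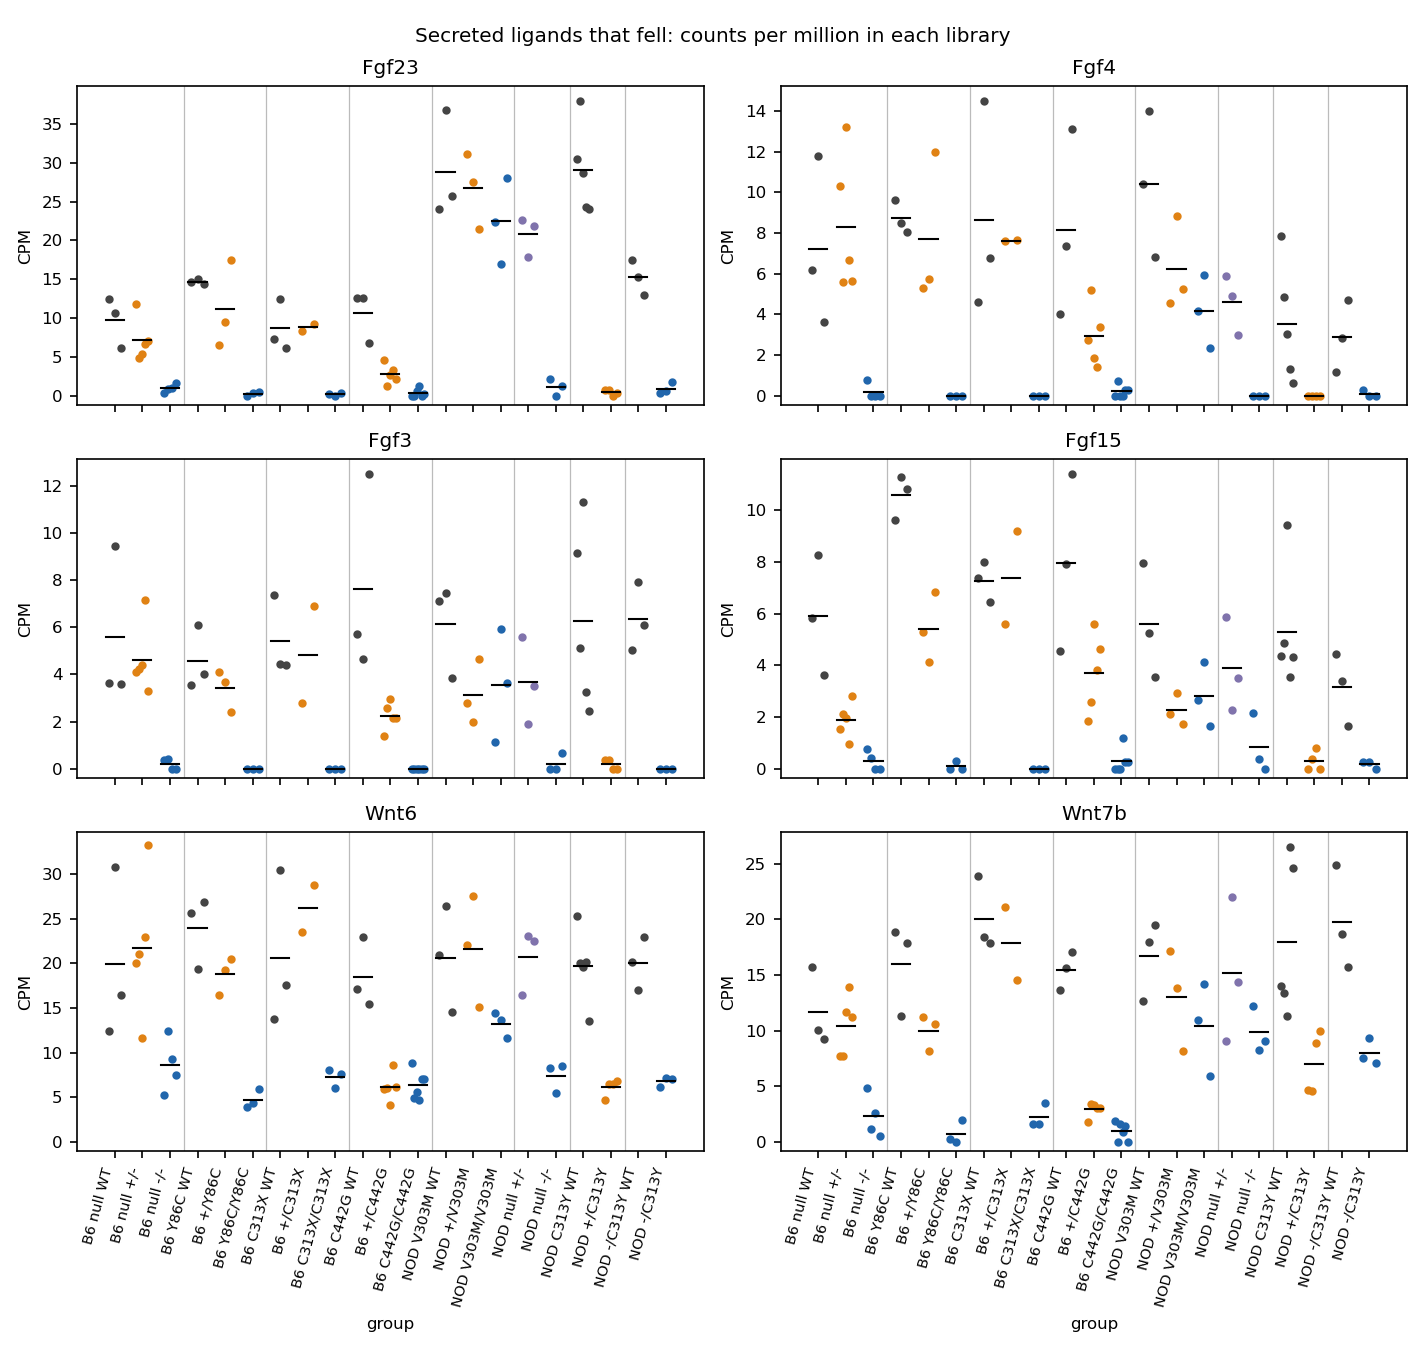
CPM of Fgf23, Fgf4, Fgf3, Fgf15, Wnt6 and Wnt7b in each library, by group (black wild-type, orange heterozygous, purple NOD Aire+/-, blue homozygous or -/C313Y; bars are group means). Blue points of the B6 lines and of NOD Aire-/- and -/C313Y lie at or near 0 for Fgf23, Fgf4 and Fgf3. For Fgf15 those of the B6 lines and of -/C313Y do, and its change in NOD Aire-/- libraries was not called. V303M points of Fgf23 and Wnt7b overlap those of their wild-type libraries.

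The intracellular FGFs were called higher in several mutants and lower in 0 of the 13 comparisons. Fgf13 (chrX:59062145-59568071), a regulator of sodium channels and microtubules in neurons, was at 43.1, 38.1 and 45.3 CPM in Y86C wild-type, 63.6, 58.3 and 58.2 CPM in +/Y86C and 86.6, 89.4 and 89.3 CPM in Y86C/Y86C libraries. The 3 genotypes did not overlap, with a log2 fold change of 0.56 (SE 0.12, edgeR adjusted p = 0.00717) in +/Y86C and 1.31 (SE 0.11, edgeR adjusted p = 3.15e-11) in Y86C/Y86C libraries. In the null line it was at 18.2, 14.2 and 18.5 CPM in wild-type and 53.4, 39.7, 37.5 and 35.4 CPM in Aire-/- libraries (1.37, SE 0.18, edgeR adjusted p = 4.66e-07). In the C442G line it was at 9.14, 21.6 and 9.11 CPM in wild-type libraries and between 32 and 51.3 CPM in the 6 homozygous ones. All 6 lay above all wild-type libraries (1.67, SE 0.21, edgeR adjusted p = 2.21e-07; 2.31 without wild-type replicate 88). In C313X/C313X libraries, at 44.8, 38.6 and 31 CPM against 10.1, 1.19 and 8.46 CPM, the rise of 2.91 (SE 0.52, edgeR adjusted p = 0.00337) became 2.26 without wild-type replicate 6 and was lost with a term for sex. In -/C313Y libraries the rise of 0.93 (SE 0.31, edgeR adjusted p = 0.03) was lost when any of 4 libraries was left out (wild-type replicates 1 and 3, -/C313Y replicates 1 and 2).

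Fgf14, whose human counterpart is mutated in a hereditary ataxia, was at 10.2, 12.4 and 13.4 CPM in wild-type and 33.4, 32.9, 25.2 and 35.9 CPM in Aire-/- B6 libraries. The groups did not overlap (1.54, SE 0.21, edgeR adjusted p = 1.04e-06). It was higher in NOD -/C313Y libraries, at 11.2, 12.3 and 13.2 CPM against 3.26, 6.23 and 2.76 CPM (1.81, SE 0.38, edgeR adjusted p = 0.00083). In +/C313Y libraries, at 12.5, 4.56, 9.72 and 11.2 CPM against 6.98, 4, 4.9, 2.91 and 1.85 CPM, it was higher with 1 mutant library inside the wild-type range (1.29, SE 0.32, edgeR adjusted p = 0.00469). It was also higher in Y86C/Y86C (1.12, SE 0.19, edgeR adjusted p = 1.78e-05), C442G/C442G (0.74, SE 0.17, edgeR adjusted p = 0.000469) and C313X/C313X libraries (1.16, SE 0.35, edgeR adjusted p = 0.0325). The last call was lost without wild-type replicate 2 or 6 or homozygous replicate 1 or 14, and with a sex term. In NOD Aire-/- against Aire+/- libraries Fgf14 was at 7.38, 5.93 and 8.46 CPM against 10.9, 9.85 and 5.69 CPM and Fgf13 at 27.8, 32.4 and 31.9 CPM against 21.7, 23.1 and 28.4 CPM, and neither was called. Fgf11 was called in Aire-/- B6 libraries alone of the 13 comparisons (1.54, SE 0.42, edgeR adjusted p = 0.00422), at 7.14, 8.82, 6.16 and 6.91 CPM against 2.55, 0.592 and 4.64 CPM.

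**Figure D3:**
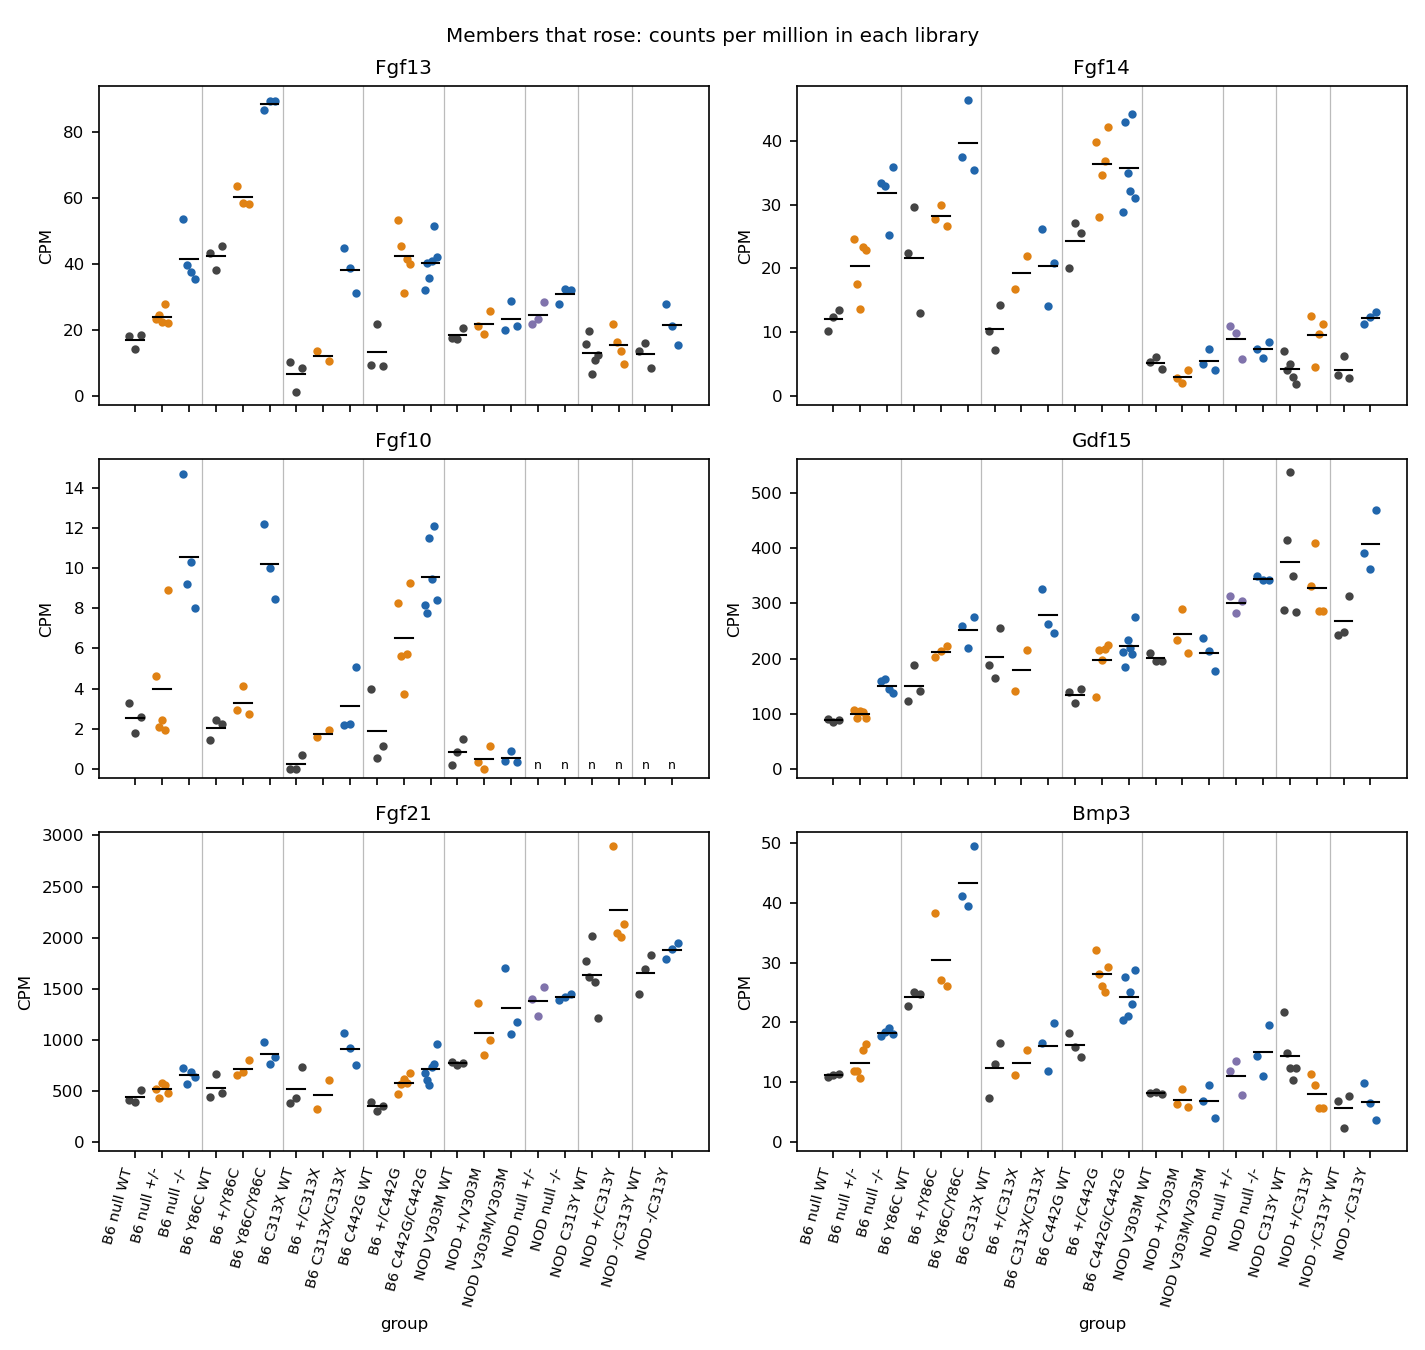
CPM in each library of the members called higher in the most comparisons, by group (black wild-type, orange heterozygous, purple NOD Aire+/-, blue homozygous or -/C313Y; bars are group means; n marks a gene not listed in that table). Fgf13 in the Y86C line steps up from 38.1 to 45.3 CPM in wild-type through 58.2 to 63.6 CPM in heterozygous to 86.6 to 89.4 CPM in homozygous libraries.

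Every WNT call in the 13 comparisons was a lower value: 6 of 10 tested WNT genes in Aire-/- B6 libraries, 5 of 11 in Y86C/Y86C, 3 of 13 in C313X/C313X and 5 of 11 in C442G/C442G libraries. They were 4 of 11 in +/C442G libraries, and in NOD mice 2, 5 and 5 of 13 in Aire-/-, +/C313Y and -/C313Y libraries. Of all genes tested, 18.9%, 27.9%, 15.2%, 23.1%, 13.4%, 9.11%, 11.0% and 12.9% were lower in these 8 comparisons, in the same order. Wnt6, an epithelial WNT (chr1:74771892-74785322), was at 25.6, 19.4 and 26.9 CPM in Y86C wild-type and 3.87, 4.41 and 5.99 CPM in Y86C/Y86C libraries, well apart (-2.13, SE 0.24, edgeR adjusted p = 1.2e-08). In the null line it was at 12.4, 30.8 and 16.5 CPM in wild-type and at 5.26, 12.4, 9.24 and 7.46 CPM in Aire-/- libraries, where the groups met at 12.4 CPM. That fold change (-1.07, SE 0.38, edgeR adjusted p = 0.0375) was lost without any of 5 libraries (Aire_wt_432, Aire_wt_434, Aire_KO_428, Aire_KO_431 or Aire_KO_436). In NOD mice Wnt6 was at 8.25, 5.53 and 8.46 CPM in Aire-/- against 16.5, 23.1 and 22.5 CPM in Aire+/- libraries (-1.35, SE 0.25, edgeR adjusted p = 0.000359). It was at 4.65, 6.46, 6.48 and 6.82 CPM in +/C313Y against 25.3, 20, 19.6, 20.1 and 13.6 CPM in wild-type libraries (-1.6, SE 0.21, edgeR adjusted p = 2.19e-06). It was also lower in -/C313Y (-1.45, SE 0.24, edgeR adjusted p = 4.25e-05). In C313X/C313X libraries the call (-1.35, SE 0.32, edgeR adjusted p = 0.0113) was lost without homozygous replicate 10 and with a sex term. Wnt10a, 6.2 kb from Wnt6, was called in Aire-/- B6 libraries only, at 91.3, 87, 108 and 99.8 CPM against 144, 124 and 137 CPM (-0.39, SE 0.12, edgeR adjusted p = 0.00963). That call was lost without library Aire_wt_430.

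Wnt7b, a WNT of lung and kidney development (chr15:85535437-85582473), was at 15.7, 10.1 and 9.27 CPM in wild-type and 4.88, 1.2, 2.57 and 0.553 CPM in Aire-/- B6 libraries. The groups did not overlap (-2.32, SE 0.42, edgeR adjusted p = 7.28e-05; -3.09 without library Aire_KO_428). In Y86C libraries it was at 18.9, 11.3 and 17.9 CPM against 0.277, 0 and 2 CPM (-4.49, SE 0.49, edgeR adjusted p = 6.79e-09), moving to -3.83 or -6.2 without Y86C/Y86C replicate 5 or 9. It was lower in C313X/C313X (-2.93, SE 0.35, edgeR adjusted p = 0.000201, lost with a sex term) and C442G/C442G libraries (-3.73, SE 0.39, edgeR adjusted p = 1.73e-09). In NOD mice the changes were -1.24 in +/C313Y (SE 0.31, edgeR adjusted p = 0.00405) and -1.18 in -/C313Y libraries (SE 0.34, edgeR adjusted p = 0.0125, lost without wild-type replicate 1 or -/C313Y replicate 1). Wnt8b, a WNT of the embryonic forebrain, was at 10.2, 7.69 and 12.4 CPM in wild-type and 0.751, 0.401, 1.03 and 0.276 CPM in Aire-/- B6 libraries, the groups being far apart (-3.95, SE 0.52, edgeR adjusted p = 5e-07). It was also lower in Y86C/Y86C (-3.6, SE 0.4, edgeR adjusted p = 1.14e-08; -4.29 without homozygous replicate 4) and C442G/C442G libraries (-3.24, SE 0.37, edgeR adjusted p = 1.01e-08). In +/C313Y libraries it spread over 10.7, 6.84, 2.43 and 0.401 CPM, around the wild-type 6.55, 5.14, 3.39, 2.59 and 2.46 CPM, and was not called.

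Wnt4, a WNT made by thymic epithelium, was at 41.2, 26.6 and 46.4 CPM in wild-type and 19.2, 26.5, 26.7 and 21.3 CPM in Aire-/- B6 libraries, where the groups touched. The change of -0.63 (SE 0.17, edgeR adjusted p = 0.00436) was lost without library Aire_wt_434. It was lower in Y86C/Y86C (-1.02, SE 0.23, edgeR adjusted p = 0.000363) and C442G/C442G libraries (-0.75, SE 0.19, edgeR adjusted p = 0.00162), without overlap in either. Wnt9a, a WNT of joint formation, was lower in Y86C/Y86C libraries, at 2.49, 1.47 and 3.99 CPM against 10.3, 8.91 and 6.28 CPM (-1.54, SE 0.38, edgeR adjusted p = 0.00123). It was lower in C442G/C442G (-1.89, SE 0.42, edgeR adjusted p = 0.000411) and +/C313Y libraries (-1.66, SE 0.47, edgeR adjusted p = 0.0114, lost without the 2 wild-type libraries titled C313T). The other WNT genes called were Wnt9b in Aire-/- B6 libraries (-3.14, SE 0.74, edgeR adjusted p = 0.00119), Wnt5a in C313X/C313X, Wnt5b in NOD Aire-/- and -/C313Y, Wnt11 in +/C313Y and +/C442G, and Wnt7a in +/C313Y libraries. Of these, the Wnt5a, Wnt5b, Wnt7a and Wnt11 calls were each lost when 1 of 3 or more libraries was left out. Wnt6 was also called lower in C442G/C442G, Wnt8b in +/C442G and -/C313Y, and Wnt4 in -/C313Y libraries. In -/C313Y libraries the Wnt4 call was lost with a sex term and without wild-type replicate 1 or 3 or -/C313Y replicate 1 or 2. The Wnt8b call there was lost without wild-type replicate 1 or -/C313Y replicate 1 or 2.

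Among BMPs, Bmp8a and Bmp2 were lower and Bmp3 higher. Bmp8a, a germ-cell BMP, was at 10.3, 6.83 and 4.55 CPM in C442G wild-type and between 0.314 and 1.12 CPM in the 6 C442G/C442G libraries. The groups did not overlap (-3.02, SE 0.46, edgeR adjusted p = 2.33e-06). In the null line it was at 5.47, 3.55 and 6.18 CPM in wild-type and 0, 1.2, 1.03 and 0.276 CPM in Aire-/- libraries (-2.97, SE 0.63, edgeR adjusted p = 0.000366). In the C313X line it was at 0 in all 3 homozygous libraries against 5.52, 2.37 and 4.74 CPM (at least 14-fold lower, edgeR adjusted p = 0.00287, lost with a sex term). Its near-identical copy Bmp8b was never tested, and tags of the pair may not be told apart. Bmp2, a bone and heart BMP, was at 91.9, 81.8 and 91.5 CPM in Y86C wild-type and 49.2, 55.6 and 37.9 CPM in Y86C/Y86C libraries (-0.62, SE 0.12, edgeR adjusted p = 5.47e-05). It was also lower in Aire-/- B6 libraries (-0.58, SE 0.15, edgeR adjusted p = 0.0031). Bmp7, a kidney and eye BMP, was at 46, 65.5 and 47.7 CPM in C313X wild-type and 26.5, 23 and 19.9 CPM in C313X/C313X libraries (-1.0, SE 0.21, edgeR adjusted p = 0.0055, lost with a sex term). It was also lower in Y86C/Y86C libraries (-0.89, SE 0.22, edgeR adjusted p = 0.00104). Bmp3, which opposes other BMPs in bone, was at 10.9, 11.2 and 11.3 CPM in wild-type and 17.7, 18.4, 19 and 18 CPM in Aire-/- B6 libraries. All 4 lay above (0.81, SE 0.21, edgeR adjusted p = 0.00337). It was also higher in Y86C/Y86C (1.07, SE 0.16, edgeR adjusted p = 1.68e-06) and C442G/C442G libraries (0.8, SE 0.17, edgeR adjusted p = 0.000309). Of the 2 symbols that encode no ligand, the protease Bmp1 was lower in Aire-/- B6 libraries (-0.58, SE 0.12, edgeR adjusted p = 0.00021). The kinase Bmp2k, whose 3' end overlaps Paqr3, was higher in Y86C/Y86C (1.17, SE 0.17, edgeR adjusted p = 8.42e-07) and C442G/C442G libraries (1.04, SE 0.3, edgeR adjusted p = 0.00937).

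Gdf3, a factor of pluripotent embryonic cells (chr6:122605403-122610087), was at 12, 16 and 2.58 CPM in wild-type and 0.376, 0.802, 1.54 and 0.829 CPM in Aire-/- B6 libraries. The groups did not overlap (-3.41, SE 0.57, edgeR adjusted p = 5.11e-05). In NOD mice it was at 14.1, 17.8 and 14.4 CPM in Aire+/- and 0.434, 0.79 and 0 CPM in Aire-/- libraries, a ratio of 32.3 (95% counting interval 10.8 to 158, edgeR adjusted p = 2.14e-05). In Y86C/Y86C, C313X/C313X and C442G/C442G libraries it stayed between 7.64 and 14.6 CPM, against 23.9 to 38.5 CPM in their wild-type libraries. Those changes were -1.85 (SE 0.24, edgeR adjusted p = 1.94e-07), -1.38 (SE 0.25, edgeR adjusted p = 0.00267, lost with a sex term) and -1.41 (SE 0.17, edgeR adjusted p = 3.99e-08). In NOD +/C313Y and -/C313Y libraries they were -3.63 (SE 0.47, edgeR adjusted p = 2.16e-06) and -3.49 (SE 0.52, edgeR adjusted p = 1.36e-05; -4.11 without -/C313Y replicate 3). Gdf10, a BMP3-like factor, was at 5.71, 8.47 and 9.68 CPM in wild-type and between 1.9 and 3.14 CPM in the 6 C442G/C442G libraries (-1.52, SE 0.32, edgeR adjusted p = 0.000235). It was lower in Y86C/Y86C (-1.66, SE 0.37, edgeR adjusted p = 0.000383) and +/C313Y libraries (-1.45, SE 0.33, edgeR adjusted p = 0.00205). Gdf6, a factor of joint formation, was lower in +/C313Y, at 0.358, 0.38, 0.81 and 0.401 CPM against 5.24, 3.43, 4.15, 2.59 and 1.85 CPM (-2.64, SE 0.62, edgeR adjusted p = 0.00258). It was lower in -/C313Y libraries too (ratio 9.29, 2.18 to 83.3, edgeR adjusted p = 0.0211), a call lost without any of 3 libraries (wild-type 3, -/C313Y 2 and 3).
Gdf15, a hormone of stressed cells that acts on the brainstem, was at 91.2, 85.2 and 88.6 CPM in wild-type and 159, 163, 145 and 137 CPM in Aire-/- B6 libraries. All 4 lay above (0.87, SE 0.1, edgeR adjusted p = 2.19e-08). It was also higher in Y86C/Y86C (0.98, SE 0.14, edgeR adjusted p = 8.69e-06), C442G/C442G (0.93, SE 0.15, edgeR adjusted p = 2.03e-05) and -/C313Y libraries (0.73, SE 0.2, edgeR adjusted p = 0.00872).

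Of the inhibin and activin subunits, Inhba was called lower in 5 comparisons and Inhbb higher in 2. Inhba, the subunit of activin A (chr13:16011851-16031621), was at 16, 11.7 and 10.8 CPM in Y86C wild-type and 0, 1.18 and 0.499 CPM in Y86C/Y86C libraries. No overlap was seen (-4.2, SE 0.55, edgeR adjusted p = 4.89e-07; -3.51 or -5.6 without homozygous replicate 4 or 5). In the C442G line it was at 7.42, 9.57 and 13.7 CPM in wild-type and between 0 and 0.628 CPM in homozygous libraries (-5.24, SE 0.54, edgeR adjusted p = 1.51e-09; -5.83 without homozygous replicate 80). It was called lower in +/C313Y (-2.43, SE 0.66, edgeR adjusted p = 0.00929) and -/C313Y libraries (-2.32, SE 0.71, edgeR adjusted p = 0.0184, lost without -/C313Y replicate 1 or 3 and -3.03 without replicate 2). Its 3' end overlaps Gm48444. In B6 null libraries Inhba was not tested, with means of 4.36 CPM in wild-type and 0.687 CPM in Aire-/- libraries. In NOD mice, at means of 9.64 CPM in Aire+/- and 4.27 CPM in Aire-/- libraries, it was not called. Inhbb, the subunit of activin B, was at 18.6, 14.2 and 17.5 CPM in wild-type and 38.3, 50.5, 37 and 30.1 CPM in Aire-/- B6 libraries. All 4 lay above (1.29, SE 0.21, edgeR adjusted p = 1.36e-05). It was higher in Y86C/Y86C libraries (0.56, SE 0.15, edgeR adjusted p = 0.00204), where 1 of 3 lay within the wild-type range. Inhbb was not called in C442G/C442G (mean 30.7 against 30.9 CPM), C313X/C313X (62.2 against 56.4 CPM) or +/C313Y libraries (16.7 against 29.9 CPM in wild-type ones). Inha, the inhibin alpha subunit, was called in +/C442G libraries only, at 42.6, 49.7, 39.8, 48.5 and 53.9 CPM against 45.1, 35.3 and 33 CPM (0.45, SE 0.16, edgeR adjusted p = 0.0364). That call was lost without any of 5 libraries (wild-type 88 or 89, heterozygous 82, 87 or 91), with a sex term, with RLE factors and with DESeq2.

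Heterozygous libraries had between 0 and 17 called members, depending on the allele. In Aire+/- B6 libraries 0 of 29 members were called, where 0.48% of all genes were (0.102% lower, 0.378% higher). Of the 29, 6 had an unadjusted p under 0.05 (Wnt10b lower, and Fgf11, Fgf13, Fgf14, Fgf21 and Inhbb higher), and DESeq2 called 1. The share of all genes at that unadjusted level was not counted, here or in the comparisons below. Inhbb came nearest to a call (0.86, SE 0.21, edgeR adjusted p = 0.062). Fgf15, not tested in the null line, averaged 1.87 CPM in Aire+/- against 5.91 CPM in wild-type libraries, without overlap. In +/C313X libraries 0 of 36 were called, where 0.0% of all genes were, with 0 at an unadjusted p under 0.05 and 0 by DESeq2. In +/Y86C libraries the 2 called members were Fgf13 (above) and Gdf15. Gdf15 was at 202, 214 and 222 CPM against 123, 189 and 141 CPM (0.55, SE 0.14, edgeR adjusted p = 0.0365), a call lost without any of 5 of the 6 libraries.
In +/C442G libraries 17 of 34 were called. Wnt6 was at 5.96, 6.05, 4.09, 8.59 and 6.16 CPM against 17.1, 23 and 15.4 CPM in wild-type libraries (-1.45, SE 0.24, edgeR adjusted p = 2.73e-05). Wnt7b was at 1.83, 3.46, 3.35, 3.1 and 3.08 CPM against 13.7, 15.6 and 17.1 CPM (-2.22, SE 0.35, edgeR adjusted p = 1.65e-05). Inhba was at 0.916, 0.432, 0, 0.477 and 1.23 CPM against 7.42, 9.57 and 13.7 CPM (-3.83, SE 0.49, edgeR adjusted p = 6.18e-07). For these 3 genes the 5 heterozygous libraries lay below all wild-type ones. Fgf13 was at 53.1, 45.4, 31.2, 41.5 and 39.8 CPM against 9.14, 21.6 and 9.11 CPM (1.65, SE 0.22, edgeR adjusted p = 1.98e-06; 2.28 without wild-type replicate 88). Fgf10 was at 8.25, 5.62, 3.72, 5.73 and 9.24 CPM against 4, 0.547 and 1.14 CPM (2.14, SE 0.45, edgeR adjusted p = 0.000542; 3.21 or 1.41 without wild-type replicate 86 or 88). Other FGFs moved in both directions. Fgf21 was higher, at 581 ± 75.8 CPM (SD, n = 5) against 349 ± 43.8 CPM (n = 3), without overlap (0.87, SE 0.16, edgeR adjusted p = 0.000163). Fgf23, Fgf4, Fgf3 and Fgf18 were lower. Fgf18 had a change of -2.27 (SE 0.47, edgeR adjusted p = 0.000475). Fgf23 was at 4.58, 1.3, 2.6, 3.34 and 2.16 CPM against 12.6, 12.6 and 6.83 CPM (-1.81, SE 0.39, edgeR adjusted p = 0.000718). Fgf4 was at 2.75, 5.18, 1.86, 1.43 and 3.39 CPM against 4, 7.38 and 13.1 CPM (-1.39, SE 0.43, edgeR adjusted p = 0.0151). The Fgf4 groups overlapped, and its call was lost with a sex term and without wild-type replicate 89 or heterozygous replicate 87. Fgf3 (-1.54, SE 0.43, edgeR adjusted p = 0.00856) lost its call without wild-type replicate 89. In C442G/C442G libraries Fgf4 was between 0 and 0.706 CPM (-4.9, SE 0.59, edgeR adjusted p = 3.73e-08; -5.53 without replicate 83) and Fgf23 between 0 and 1.18 CPM (-4.63, SE 0.5, edgeR adjusted p = 3.9e-09; -5.43 without replicate 90).

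The difference between the heterozygous effects was tested in a fit over the 4 B6 tables, contrasts that were added after the values had been seen. The +/C442G effect minus the +/- effect was called for 8 of 41 members, where 5.75% of the 14547 tested genes were called (3.51% lower, 2.24% higher). It was -1.64 for Wnt6 (SE 0.39, edgeR adjusted p = 0.00662), -2.05 for Wnt7b (SE 0.51, edgeR adjusted p = 0.00983) and -3.65 for Inhba (SE 0.84, edgeR adjusted p = 0.00561), and these 3 remained called whichever library was left out. In Aire+/- libraries Wnt6, Wnt7b and Inhba overlapped their wild-type libraries. Wnt6 was at 20, 21, 11.7, 22.9 and 33.2 CPM, Wnt7b at 7.69, 7.71, 11.7, 13.9 and 11.2 CPM and Inhba at 5.64, 4.21, 2.92, 3.82 and 2.81 CPM against 4.74, 4.73 and 3.61 CPM. Fgf17 (-3.16), Wnt7a (-3.32), Wnt8b (-1.64), Wnt11 (-1.38) and Fgf13 (1.17) were called too, with adjusted p from 0.0213 to 0.0417 in edgeR, and each lost its call without library Aire_wt_434 or Aire_wt_430, among others. Against the +/Y86C effect, +/C442G differed for 1 member, Inhba (-3.31, SE 0.78, edgeR adjusted p = 0.0111), where 2.8% of all genes were called (2.0% lower, 0.804% higher), and that call was lost without +/Y86C replicate 3. The +/Y86C and +/C313X effects minus the +/- effect gave 0 called members in edgeR and 0 in DESeq2, where 0.0% of all genes were called, with 0 and 6 members at an unadjusted p under 0.05. Each line had its own table, so line and table cannot be told apart.

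**Figure D4:**
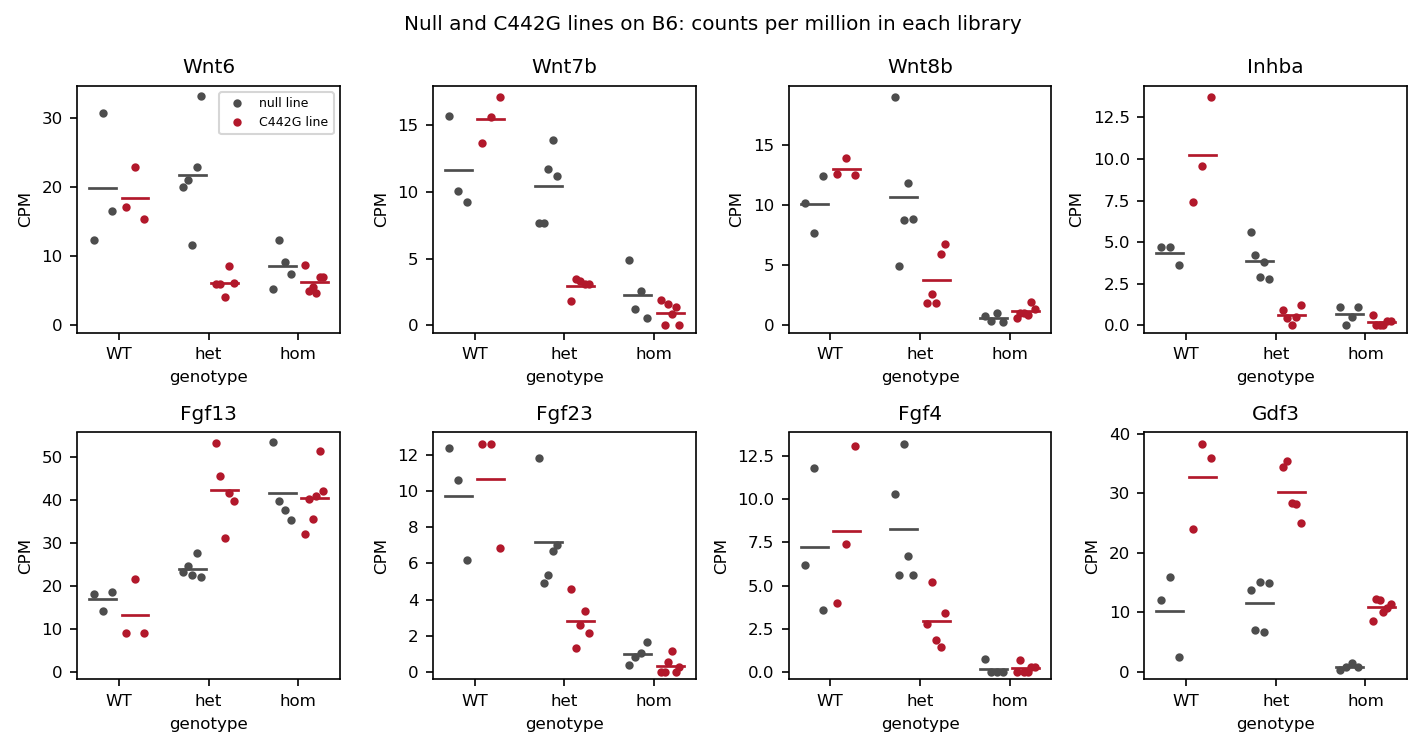
CPM in each library of Wnt6, Wnt7b, Wnt8b, Inhba, Fgf13, Fgf23, Fgf4 and Gdf3 for wild-type, heterozygous and homozygous mice of the null line (grey) and the C442G line (red); bars are means. For Wnt6, Wnt7b and Inhba the red heterozygous points lie near the homozygous ones and the grey heterozygous points near the wild-type ones, while Gdf3 in +/C442G libraries (25 to 35.4 CPM) lies in the wild-type range.

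Between homozygous lines few differences were called. C313X/C313X minus Aire-/- was called for 3 members, where 2.69% of all genes were (0.784% lower, 1.91% higher). They were Fgf13 (1.68, SE 0.41, edgeR adjusted p = 0.0193), Gdf3 (2.11, SE 0.6, edgeR adjusted p = 0.0432) and Bmp7 (-0.98, SE 0.26, edgeR adjusted p = 0.0313). All 3 were lost with a sex term, and each without library Aire_wt_430 and without C313X wild-type replicate 6. Without C313X wild-type replicate 6 or 7 the Fgf13 difference was 0.97 or 2.37. C442G/C442G minus Aire-/- was called for Gdf3 (2.06, SE 0.58, edgeR adjusted p = 0.0396), Wnt9b (3.2, SE 0.89, edgeR adjusted p = 0.0362) and Inhbb (-1.08, SE 0.31, edgeR adjusted p = 0.0408), where 2.91% of all genes were (1.55% higher, 1.35% lower). Each of these lost its call under 9 or more alternatives, among them leaving out Aire_wt_430 or Aire_wt_432. Y86C/Y86C minus Aire-/- gave 0 called members in edgeR and 0 in DESeq2, where 2.0% of all genes were called (1.11% higher, 0.887% lower), and 10 members with an unadjusted p under 0.05.

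In V303M mice 0 of 38 members were called in V303M/V303M libraries, where 0.0657% of all genes were called (0.0511% lower, 0.0146% higher), and 0 of 38 in +/V303M libraries, where 0.0% were. At an unadjusted p under 0.05 there were 7 and 5 members, and DESeq2 called 1 and 0. Fgf23 was at 24, 36.8 and 25.7 CPM in wild-type, 31.2, 27.5 and 21.5 CPM in +/V303M and 22.4, 16.9 and 28.1 CPM in V303M/V303M libraries, 3 overlapping groups. Fgf4 was at 10.4, 14 and 6.8 CPM in wild-type and 4.18, 5.93 and 2.32 CPM in V303M/V303M libraries, which did not overlap but did not pass the test (-1.26, SE 0.35, edgeR adjusted p = 0.306). Wnt7b, at 12.7, 18 and 19.5 CPM in wild-type and 11, 14.2 and 5.96 CPM in V303M/V303M libraries, overlapped.

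Receptors, inhibitors and targets of these ligands, listed by role, moved as follows. Of the BMP target and feedback genes, 5 of 8 were lower in Aire-/- B6, 8 of 8 in Y86C/Y86C, 4 of 8 in C313X/C313X, 8 of 8 in C442G/C442G and 5 of 8 in +/C442G libraries, and 0 were higher. The shares of all genes called lower were 18.9%, 27.9%, 15.2%, 23.1% and 13.4%. In NOD mice 1 of 8 was lower in Aire-/-, 2 of 8 in +/C313Y and 4 of 8 in -/C313Y libraries, against 9.11%, 11.0% and 12.9% of all genes. Id1, an inhibitor of differentiation factors, fell by 1.45 in Aire-/- (SE 0.18, edgeR adjusted p = 1.51e-07) and by 2.41 in Y86C/Y86C libraries (SE 0.22, edgeR adjusted p = 1.44e-10). Their summed level was 314 to 379 CPM in null wild-type and 149 to 195 CPM in Aire-/- libraries, which did not overlap. The BMP and activin inhibitors went both ways, with 3 higher and 3 lower of 7 in Aire-/- B6, 2 higher and 2 lower of 7 in Y86C/Y86C and 2 higher and 2 lower of 8 in C442G/C442G libraries. Of all genes, 17.7%, 21.7% and 19.5% were higher and 18.9%, 27.9% and 23.1% lower there. Among these inhibitors Fstl3, an activin-binding protein, was lower in Y86C/Y86C libraries (-1.89, SE 0.26, edgeR adjusted p = 5.45e-07). Amhr2, the receptor of anti-Mullerian hormone, was lower in Aire-/- B6 (-4.06, SE 0.6, edgeR adjusted p = 2.9e-06) and C442G/C442G libraries (-5.23, SE 0.46, edgeR adjusted p = 4.87e-11). Of the WNT inhibitors, 6 of 8 tested were lower in Y86C/Y86C, 6 of 9 in C313X/C313X, 5 of 8 in NOD Aire-/-, 7 of 8 in +/C313Y and 6 of 8 in -/C313Y libraries. They were 2 of 5 in Aire-/- B6, 2 of 4 in C442G/C442G and 3 of 4 in +/C442G libraries, and 1 was higher in Y86C/Y86C libraries. The shares of all genes called lower in these 8 comparisons were 9.11% to 27.9%. Dkk1, which blocks WNT co-receptors, had -2.44 in Aire-/- B6 (SE 0.53, edgeR adjusted p = 0.000459) and -4.77 in Y86C/Y86C libraries (SE 0.63, edgeR adjusted p = 1.75e-07). Of the WNT target and feedback genes, 3 of 4 were higher in Aire-/- B6 and 3 of 5 in Y86C/Y86C and in C442G/C442G libraries. These were Tcf7, a nuclear effector of WNT (1.05, SE 0.22, edgeR adjusted p = 0.000346 in Aire-/-), Axin2 and Rnf43. Of all genes, 17.7%, 21.7% and 19.5% were higher there. In the other lines this list had 1 higher and 1 lower of 6 in C313X/C313X, 1 and 1 of 7 in +/C313Y, and 0 higher and 1 lower of 7 in both NOD Aire-/- and -/C313Y libraries.
Of all genes, 18.9%, 27.9% and 23.1% were lower in Aire-/- B6, Y86C/Y86C and C442G/C442G libraries. Of the FGF receptors, 2 of 3 tested were lower in each. These were Fgfr3 (-2.51, SE 0.39, edgeR adjusted p = 5.68e-06 in Aire-/-) and Fgfr2 (-1.03, SE 0.25, edgeR adjusted p = 0.00167). FGF target and feedback genes went both ways: 1 of 4 was lower in Aire-/- B6, 3 of 8 lower and 1 higher in Y86C/Y86C. In C442G/C442G 2 of 9 were lower and 2 higher, and in +/C442G 0 of 9 were called. In C313X/C313X 1 of 6 was lower, and 1 of 8 in NOD Aire-/-, +/C313Y and -/C313Y, with 1 higher in +/C313Y. Of all genes, 9.11% to 27.9% were lower and 4.21% to 21.7% higher there. The FGF target gene Etv4, a transcription factor, was lower in 7 comparisons, with -2.14 in Y86C/Y86C (SE 0.28, edgeR adjusted p = 1.46e-07) and -1.49 in NOD Aire-/- libraries (SE 0.46, edgeR adjusted p = 0.0281). The feedback inhibitor Spry2 was higher in Y86C/Y86C libraries (1.15, SE 0.16, edgeR adjusted p = 6.01e-07). Of 9 ligand secretion and processing genes, 5 were lower and 1 higher in Y86C/Y86C libraries (27.9% and 21.7% of all genes). Among the lower ones were Porcn (-3.02, SE 0.58, edgeR adjusted p = 6.49e-05) and Wls (-0.69, SE 0.17, edgeR adjusted p = 0.00109). In C442G/C442G libraries 4 were lower and 2 higher (23.1% and 19.5% of all genes). In Aire-/- B6 and +/C313Y libraries 1 was lower and 1 higher. In C313X/C313X and -/C313Y libraries 1 was lower and 0 higher, and in NOD Aire-/- libraries 0 were called. Of all genes, 9.11% to 18.9% were lower in these last comparisons. Furin was lower in Aire-/- B6 (-0.87, SE 0.15, edgeR adjusted p = 4.09e-05) and +/C313Y libraries (-0.99, SE 0.13, edgeR adjusted p = 2.34e-06).

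**Figure D5:**
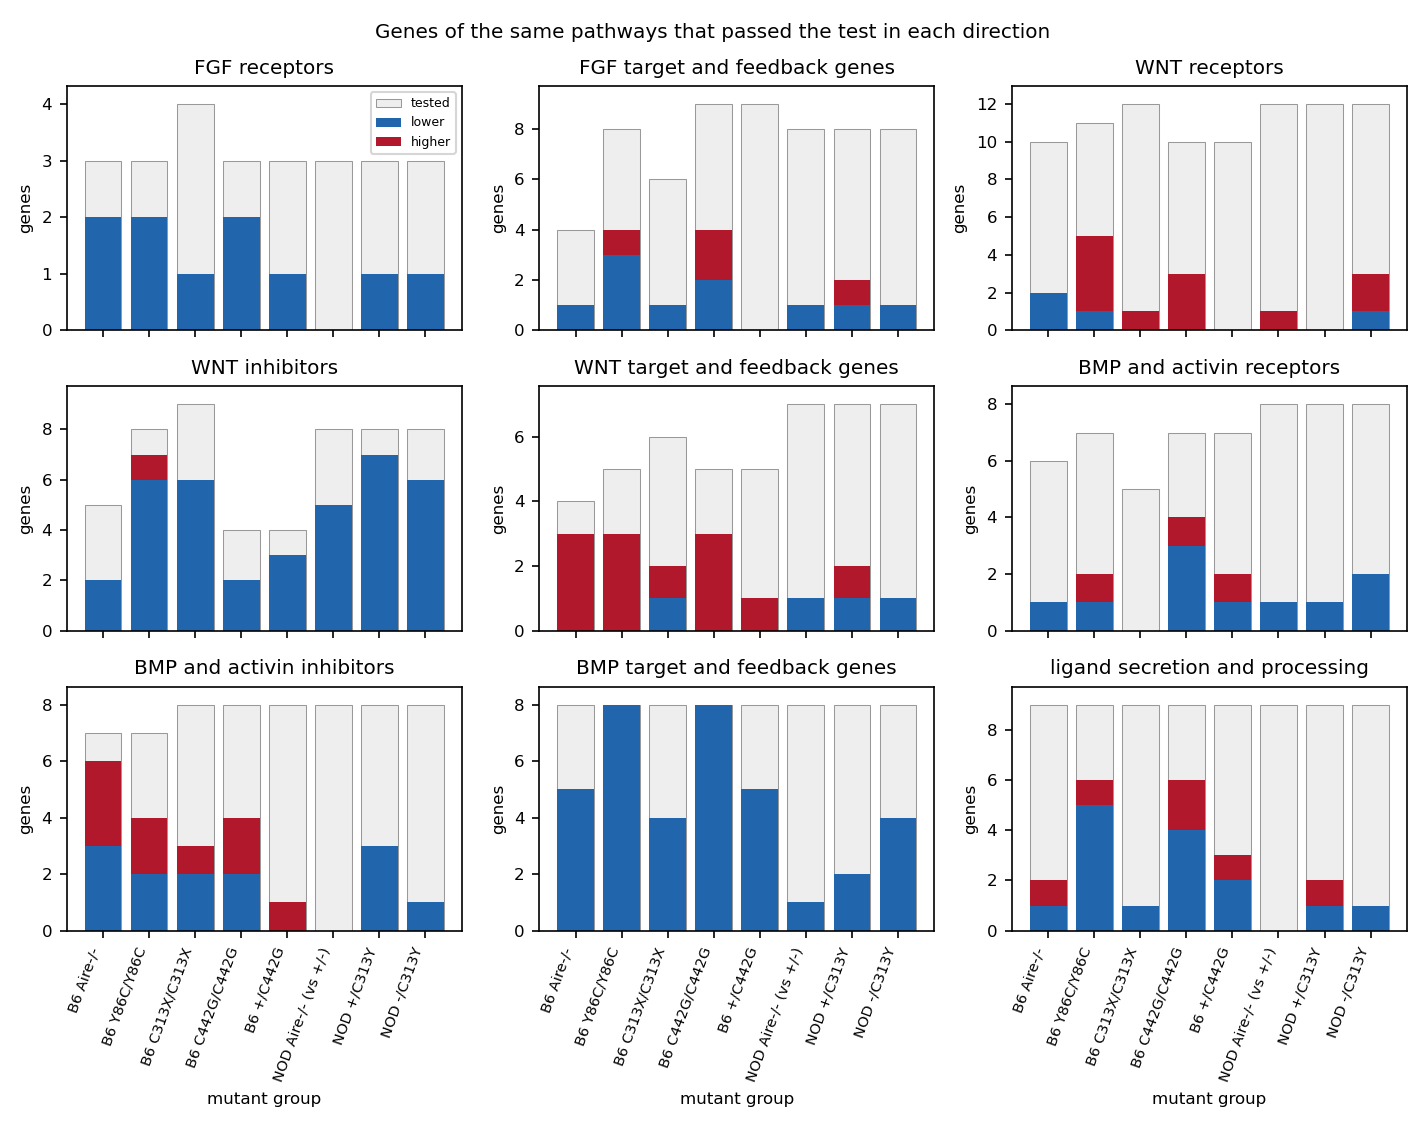
Number of genes tested, lower and higher (bars) in 9 receptor, inhibitor, target and processing lists, for 8 mutant groups against their controls. All 8 BMP target and feedback genes are lower in Y86C/Y86C and in C442G/C442G libraries, and 0 in V303M/V303M libraries.

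Markers of other cells moved with several of these groups. Sums are given for the control libraries first, then for the mutant ones. Of all genes, 18.9% were lower and 17.7% higher in Aire-/- B6, 27.9% and 21.7% in Y86C/Y86C and 23.1% and 19.5% in C442G/C442G libraries. The shares were 15.2% and 7.85% in C313X/C313X, 13.4% and 13.1% in +/C442G, and 9.11% and 4.21% in NOD Aire-/- libraries. They were 11.0% and 6.36% in +/C313Y and 12.9% and 9.83% in -/C313Y libraries. The summed keratinocyte-like markers were 789 to 913 CPM in Y86C wild-type and 281.1 to 432.5 CPM in Y86C/Y86C libraries (7 of 9 lower, 1 higher). They were 1070 to 1130 against 449 to 747 CPM in the C442G line (8 of 9 lower, 1 higher). They were 541 to 639 against 420 to 585 CPM in the null line (3 of 9 lower) and 452 to 914 against 222 to 376 CPM in the C313X line (4 of 9 lower). Of the 9, 0 were lower in the 3 NOD comparisons with calls, and 2 were higher in +/C313Y libraries. In +/C442G libraries 6 of 9 were lower and 1 higher. The tuft markers were 239 to 261 against 39.8 to 108 CPM in the Y86C line (9 of 9 lower) and 175 to 231 against 213 to 305 CPM in the null line (1 higher, 1 lower). They were 236 to 330 against 91.9 to 174 CPM in the C442G line (5 of 9 lower). Of 14 sorted-cell markers, 11 were higher and 2 lower in Aire-/- B6, 11 and 3 in Y86C/Y86C, and 9 and 2 in C442G/C442G libraries. They summed to 39300 to 46300 against 68400 to 74900 CPM in the Y86C line. Fibroblast and endothelial markers summed to 326 to 369 against 294 to 367 CPM in the null line (4 higher and 2 lower of 10). They summed to 402 to 455 against 547 to 645 CPM in the Y86C line (2 higher, 6 lower, with Cdh5 at 0 in Y86C/Y86C). Thymocyte markers summed to 93.6 to 234 against 41 to 70.3 CPM between NOD Aire+/- and Aire-/- libraries (4 of 9 lower, with Ptcra at 0 in Aire-/-). They were 151 to 195 against 60.8 to 84.3 CPM in the C313X line (5 of 10 lower) and 65.2 to 71.8 against 36.5 to 43.7 CPM in the Y86C line (4 of 7 lower, 1 higher). Of the thymocyte markers 0 of 7 were called in Aire-/- B6 libraries. In C442G/C442G 2 of 8 were lower and 1 higher, in +/C442G 2 of 8 were lower, and in +/C313Y and -/C313Y 1 of 9 was lower. Cortical epithelial markers summed to 2440 to 2490 against 4210 to 5160 CPM in the null line (2 higher and 2 lower of 6). In Y86C/Y86C 3 of 6 were higher and 2 lower, in C442G/C442G and +/C442G 3 of 8 higher and 2 lower. In C313X/C313X 2 of 7 were higher and 2 lower. In +/C313Y and -/C313Y 3 of 8 were higher and 0 lower, and in NOD Aire-/- 1 of 8 was higher. Macrophage and dendritic markers summed in the null line to 680 to 836 against 934 to 1120 CPM (3 higher and 2 lower of 9), and to 1070 to 1720 against 1110 to 1240 CPM in the C313X line (1 higher and 4 lower of 8). The part of any of these cells in the values of the ligand genes was not tested.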

How the data were processed

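Tags were counted per gene by the authors, and the deposited tables gave raw counts per library beside statistics that were not used. The submitters' processing notes name bcl2fastq, cutadapt, STAR 2.4.2a, HTSeq, DESeq2 and mm10. Strand and multi-mapping settings are not given in the sources used here. A gene enters a table from 6 counts in at least 1 library. From the counts, CPM (counts over the library total, scaled to 1e6) and edgeR 4.0.16 tests (R 4.3.3) were computed: filterByExpr, TMM factors, robust quasi-likelihood fits over all groups of a table, Benjamini-Hochberg adjustment over all tested genes, calls at 0.05. TMM scaling adds between -0.05 and 0.25 to the log2 ratio of CPM. A fold against a group at 0 uses a floor of 3 counts over the group. With 1 to 3 counts the exact 95% interval of the ratio is given. Differences between lines came from 1 fit over the 4 B6 tables (14815 shared genes). The fits were also run on simulated counts with known changes in a small part of the genes. The outcome of that run is not used here. Other settings tried were leaving out each library, a sex term, a replicate block, a fit on the compared groups only, RLE factors, tests without the filter, other NOD wild-type libraries and DESeq2 1.42.0.

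The members and lists were chosen with earlier results of these data known. Named with values are members called in at least 3 comparisons, up to 4 per comparison with the smallest adjusted p, and up to 3 genes per pathway list, apart from 1 gene that is not reported here. The roles, the contrasts between heterozygotes and the alternatives of the joint fit were chosen after the values were seen. Between wild-type and -/C313Y libraries of the same replicate number, deviations from the group means correlated at 0.0627, -0.0389 and 0.158. Libraries of different numbers were not compared, so this does not settle whether the numbers pair libraries. Positions come from GENCODE vM21 and promoters from RefSeq GRCm38.p6.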

Additional observations from a re-analysis of the deposited data

Results flagged for a closer look

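For each called member in each group of 4 to 10 libraries, 92 cases in all, the gap of a library to its nearest neighbour was tested. A library stood apart from the rest of its group in 9 cases, where chance gives about 5%, or 1 in 20, for normally distributed values. In a group otherwise at 0, a single library with counts always stands apart, so that rate does not apply there. Fgf4 was at 0.751 CPM in the Aire-/- B6 library Aire_KO_428 and at 0 in the other Aire-/- libraries. In C442G/C442G libraries Fgf15 was at 1.18 CPM in replicate 90 and Fgf18 at 0.267 CPM in replicate 84, above the others. In +/C442G replicate 81 both Gdf15 (131 CPM) and Wnt7b (1.83 CPM) were lowest. In the wild-type group of the +/C313Y comparison, Fgf15 was highest in replicate 52 (9.43 CPM). Among +/C313Y libraries, replicate 50 had the highest Fgf21 (2900 CPM) and the lowest Wnt6 (4.65 CPM), and replicate 73 the highest Gdf6 (0.81 CPM).

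Effects that differed between lines by edgeR's test of the difference itself follow, as log2 differences. C313X/C313X minus Aire-/- differed for Fgf13 (1.68), Gdf3 (2.11) and Bmp7 (-0.98), and C442G/C442G minus Aire-/- for Gdf3 (2.06), Wnt9b (3.2) and Inhbb (-1.08). The +/C442G minus Aire+/- effect differed for Fgf13 (1.17), Fgf17 (-3.16), Inhba (-3.65), Wnt6 (-1.64), Wnt7a (-3.32), Wnt7b (-2.05), Wnt8b (-1.64) and Wnt11 (-1.38). The +/C442G minus +/Y86C effect differed for Inhba (-3.31).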

How the results depend on the processing

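No called member changed direction under any alternative run. DESeq2 called 1 member instead of 0 in Aire+/- B6, 1 instead of 0 in V303M/V303M and 3 instead of 1 for +/C442G minus +/Y86C, and 43 genes instead of 9 in V303M/V303M, 2 instead of 0 in +/V303M and 29 instead of 0 for +/C313X minus Aire+/-. Without the filter on low counts 1 member instead of 0 was called in Aire+/- B6 and 35 instead of 23 in Y86C/Y86C. A sex term left 548 of 3147 genes and 4 of 13 members in C313X/C313X (Fgf23, Fgf4, Fgf3 and Fgf15), 108 of 392 genes and 0 of 3 members for C313X/C313X minus Aire-/-, 2 genes instead of 9 in V303M/V303M, and gave 1 instead of 0 for +/C313X minus Aire+/-. A fit on the compared groups alone gave 1384 instead of 2402 genes and 9 instead of 17 members in +/C313Y and 1 gene instead of 9 in V303M/V303M. The other called members of +/C313Y did not pass the filter on low counts in that fit and were not tested there. They were Bmp8a, Fgf3, Fgf4, Fgf18, Gdf6, Inhba, Wnt7a and Wnt9a. With a replicate block on the compared groups, -/C313Y had 3608 genes (1707 higher, 1901 lower) and 12 members instead of 3138 and 16. Fgf4, Fgf15, Fgf18, Gdf6 and Wnt5b, called with all groups fitted, did not pass the filter there and were not tested. Whether the replicate numbers pair the libraries is not known. Within the C313X line the sex term rested on 1 male and 1 female +/C313X library. Calls kept or lost under it there do not tell sex from genotype. Beyond the members left untested by the filter, the cause of these shifts was not tested.

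Leaving out 1 library at a time gave 15 to 82 genes and 0 to 1 members in Aire+/- B6 (61 and 0 with all; 39 without Aire_het_440, and 23, 16 and 15 without Aire_wt_430, Aire_wt_432 and Aire_wt_434), and 218 to 461 genes and 1 to 3 members in +/Y86C (242 and 218 without wild-type replicates 2 and 3, 290 and 253 without heterozygous replicates 14 and 3). It gave 2072 to 2950 genes in C313X/C313X (2072 and 2074 without homozygous replicates 1 and 10), 0 to 1 in +/C313X, 0 to 60 genes and 0 to 1 members in V303M/V303M (60 without homozygous replicate 42) and 0 to 1 genes in +/V303M. For differences of effects it gave 79 to 264 genes and 0 to 1 members for Y86C/Y86C minus Aire-/-, 162 to 928 and 0 to 6 for C313X/C313X minus Aire-/- (928 and 6 without C313X wild-type replicate 2, 0 members without C313X wild-type replicate 6 or Aire_wt_430), and 217 to 456 and 0 to 3 for C442G/C442G minus Aire-/- (0 members without Aire_wt_430, Aire_wt_432, Aire_KO_428 or Aire_KO_429). It gave 0 to 1 genes for +/Y86C minus Aire+/-, 0 to 297 for +/C313X minus Aire+/- (297 without C313X wild-type replicate 2), 516 to 905 genes and 4 to 8 members for +/C442G minus Aire+/- (4 without Aire_wt_430, Aire_wt_434 or C442G wild-type replicate 88), and 233 to 391 genes and 0 to 2 members for +/C442G minus +/Y86C. RLE factors or DESeq2 moved the higher to lower split of genes by over 10 points in +/Y86C (309 to 139, 250 to 49 in DESeq2), Y86C/Y86C minus Aire-/- (162 to 129, 127 to 192 in DESeq2), C442G/C442G minus Aire-/- (226 to 197, 208 to 296 in DESeq2) and +/C442G minus Aire+/- (326 to 511, 231 to 599 with RLE).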

Other observations

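The library titled wild type with an Aire-/- genotype, which entered no comparison, had Aire at 2260 CPM. Its ligand genes were at 11.9 CPM for Fgf23, 11.4 CPM for Fgf4, 5.96 CPM for Fgf3, 10.9 CPM for Fgf15, 20.4 CPM for Wnt6, 11.4 CPM for Wnt7b, 6.96 CPM for Wnt8b, 21.9 CPM for Gdf3, 18.9 CPM for Fgf13 and 18.9 CPM for Fgf14.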
